A study of Mus musculus with 7 samples.

Results

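The genes described here encode proteins that neutrophils store in their granules, and they were grouped by the stage of maturation at which the granules form. The members were the probe sets whose platform annotation names only 1 of 10 chosen genes: 4 of primary granules (Mpo, Elane, Prtn3 and Ctsg), 4 of secondary granules (Ltf, Camp, Ngp and Lcn2) and 2 listed as tertiary or late (Mmp8 and Mmp9). They came to 11 probe sets, 2 of them for Mmp9, among 45101 on the array, and to 10 of the 18193 genes that such a probe set names. Neutrophil precursors make granule proteins in waves. Promyelocytes make the contents of primary granules, myelocytes and metamyelocytes those of secondary granules, and band cells those of tertiary granules, and the transcripts are used as markers of these stages. Mature neutrophils keep the proteins but little of the early messenger RNA.

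Gene expression was measured in B cells separated from spleens of FVB mice, the strain of both groups, with a magnetic B-cell kit. The wild-type (WT) group held 4 arrays and carried no transgene. The transgenic (TG) group held 3 arrays from Eu-miR-155 mice, in which the antibody heavy chain enhancer Eµ, active in B-lineage cells, drives the small RNA miR-155. The labels give neither age nor sex, and the series' design text counts mice, so each array was taken as 1 mouse. The deposited GCRMA expression values are log2 and go no lower than 2.17. A value at or under 4 was treated as not above background, and between 46.0% and 47.9% of probe sets on each array lay above it. Levels are compared here between arrays for 1 probe set, never between probe sets. Precision is limited by how few arrays there are.

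The B cell label matched its markers. Of 9 B cell marker genes chosen, 8 had a probe set, all above background on every array; 1 of the 8 (Fcer2a) fell in TG and 7 did not pass. Their mean level was 13.51 to 13.63 in WT and 13.35, 13.35 and 12.85 on TG replicates 1, 2 and 3. Markers of other cells were measured as well. The mean of the 8 measured monocyte and macrophage markers was 3.26 to 5.19 in WT, highest on WT replicate 4, and 5.44, 5.93 and 6.42 in TG. The mean of 6 progenitor markers was 3.86 to 4.10 in WT against 5.80, 6.05 and 7.29 in TG, and that of 6 T cell markers was 8.51 on TG replicate 3 and at most 3.56 on every other array. Xist was at 13.61 to 13.93 on WT replicates 1 and 2 and all TG arrays and at 2.22 and 2.81 on WT replicates 3 and 4, where the Y-linked gene Eif2s3y stood at 9.86 and 11.10, so by these genes sex was not balanced between the groups.

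The TG against WT comparison asks which transcripts differ when miR-155 is overexpressed in B-lineage cells. All 4 primary granule genes were far higher in TG, each secondary granule gene lay above background on only 1 or 2 TG arrays, and the late genes stayed under background on all 7 arrays. The 4 primary genes passed the limma test as higher; among all 9517 genes tested 8.11% passed as higher and 2.56% as lower. By size of change they held ranks 1 to 4 of the 9517, with values as deposited and with values under 4 set at 4; Mpo was at rank 1 both ways and the order of the others changed. The other 6 members were above background on fewer than 3 arrays and were not tested. Mpo, Prtn3 and Ctsg met that minimum of 3 arrays because they are high in TG, so the count of tested members that passed is a description. In a bulk sample, fewer cells of a type and less RNA per cell cannot be told apart.

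**Figure D1:**
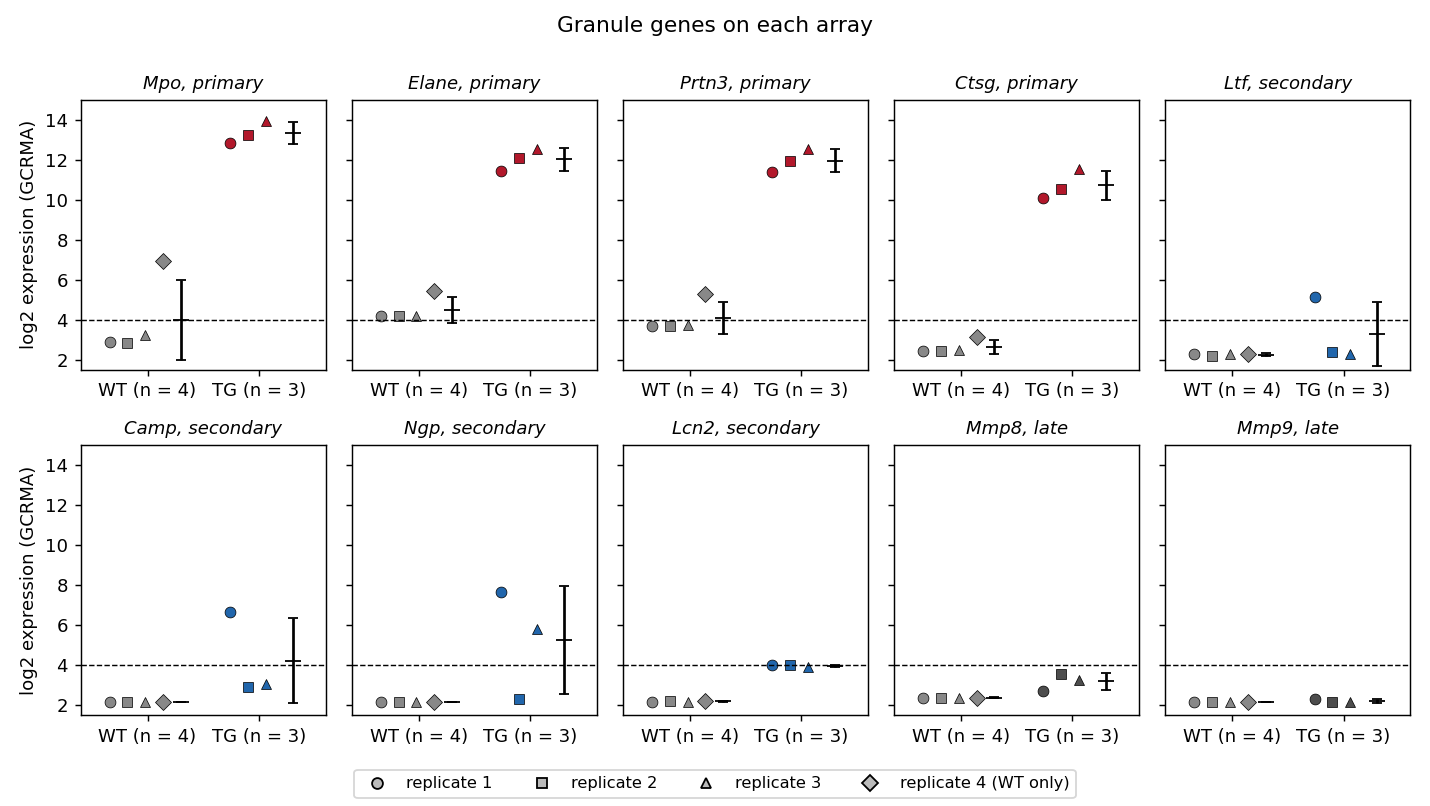
Each panel shows 1 gene: log2 GCRMA expression on the 4 WT arrays (grey) and the 3 TG arrays (coloured by granule stage), marker shapes give the replicate number, bars the mean ± SD, and the dashed line the background level of 4. The 4 primary granule genes lie at 10.07 or more on every TG array; Ltf, Camp and Ngp are above 4 on TG replicate 1, Ngp also on TG replicate 3, and Mmp8 and Mmp9 on none.

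The 4 primary genes moved alike across arrays, and their promoters are shown because the genes shared this pattern. Sequences are RefSeq windows of mouse build GRCm38.p6, read from the 250 bases before each gene's start; 9 of the 10 members had one, and Mmp9 had none. Of the windows below, those of Mpo (chr11:87793534-87793643, plus strand) and Ctsg (chr14:56102715-56102824, minus strand) run for 110 bases from the base 250 before the start. Those of Elane (chr10:79886202-79886311, plus strand) and Prtn3 (chr10:79879557-79879666, plus strand) run from 110 bases before it to the base next to it. Capitals mark the letters AGGAAGT, a run of the kind that ETS family factors such as PU.1 bind, and TATAAG, which resembles a TATA box.
Mpo: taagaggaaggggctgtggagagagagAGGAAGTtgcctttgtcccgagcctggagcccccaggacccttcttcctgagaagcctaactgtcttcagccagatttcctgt
Elane: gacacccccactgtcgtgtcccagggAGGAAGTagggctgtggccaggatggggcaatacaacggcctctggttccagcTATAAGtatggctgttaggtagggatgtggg
Prtn3: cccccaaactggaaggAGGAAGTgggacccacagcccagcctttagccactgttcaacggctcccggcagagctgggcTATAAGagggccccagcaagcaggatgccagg
Ctsg: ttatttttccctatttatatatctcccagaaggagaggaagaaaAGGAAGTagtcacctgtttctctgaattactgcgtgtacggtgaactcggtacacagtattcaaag

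AGGAAGT was present in all 4 primary windows of 250 bases, on the gene's own strand, with its first base 223, 84, 94 and 206 bases before the start of Mpo, Elane, Prtn3 and Ctsg. Searched on both strands, it was in none of the 4 secondary windows, in that of Mmp8 on the opposite strand, and in 7.69% of all 32851 RefSeq windows of this length. TATAAG was 31 and 32 bases before the start in Elane and Prtn3, in no other member, and in 6.65% of all windows. The motifs were chosen after the sequences had been seen, and a match is a run of letters and not evidence that a factor binds there.

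Mpo encodes myeloperoxidase, the haem enzyme that makes hypochlorous acid in the phagosome. Its level was 2.88, 2.85, 3.23 and 6.95 on WT replicates 1 to 4 and 12.84, 13.25 and 13.93 on TG replicates 1 to 3. WT replicate 4 was the only WT array above background, and the lowest TG value still lay 5.89 above it on the log2 scale, a 59.2-fold gap. The WT mean was 3.98 ± 1.99 (SD, n = 4) and the TG mean 13.34 ± 0.55 (SD, n = 3). In limma Mpo rose by 9.36 with an SE of 1.04 (adjusted p = 0.00956), or by 8.60 with values under 4 set at 4. The call was lost without TG replicate 2 (limma adjusted p = 0.0561, change 9.40) and with no filter on dim probe sets (adjusted p = 0.0509).

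Elane, Prtn3 and Ctsg encode neutrophil elastase, proteinase 3 and cathepsin G, related serine proteases that are stored in active form and digest engulfed microbes and matrix. Elane read 4.17 on each of WT replicates 1 to 3 and 5.46 on replicate 4, against 11.43, 12.10 and 12.56 in TG. The repeated value is the lowest for that probe set and is not a graded level, so the fitted rise of 7.54 ± 0.41 (SE, limma adjusted p = 0.00101) is not exact. The lowest TG array stood 5.98 above the highest WT array on the log2 scale.

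Prtn3 was at 3.68, 3.68, 3.75 and 5.30 in WT and at 11.40, 11.92 and 12.53 in TG. It rose by 7.85 ± 0.47 (SE, limma adjusted p = 0.00168), or by 7.63 with values under 4 set at 4, and the groups were separated by 6.10. Ctsg did not exceed background on any WT array (2.45, 2.45, 2.51 and 3.14) and was at 10.07, 10.56 and 11.53 in TG. Its fold is a lower bound, the TG mean of 10.72 ± 0.74 (SD, n = 3) against a level of 4, and it was at least 105-fold higher (fitted change 8.08 ± 0.36 SE, limma adjusted p = 0.000512). For each of these genes the gap between the groups was several times the spread among the TG arrays. Most WT values of Elane, Prtn3 and Ctsg are under background or 1 repeated value, so their WT spread is not measured.

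The primary genes were also compared on arrays matched for the sex-linked genes and without the arrays that stood apart. With WT replicates 1 and 2 alone, whose Xist level matches the TG arrays, the changes were 10.5 for Mpo, 7.86 for Elane, 8.27 for Prtn3 and 8.27 for Ctsg, with limma adjusted p of 0.024, 0.044, 0.044 and 0.044. With WT replicate 4 and TG replicate 3 left out together they were 10.1, 7.60, 7.96 and 7.85, and all 4 passed (adjusted p from 0.000764 to 0.00152). WT replicate 4 is the highest WT array for each of these genes. Both fits leave it out, which removes most of their WT spread. Passing in either fit is therefore a description and not a separate check. The 35 splits of 7 arrays into 4 and 3 give 0.0286 as the smallest two-sided exact permutation p, and each of the 4 genes had it, as did Ltf, Camp, Ngp, Lcn2 and Mmp8. In each of these genes every TG array lay above every WT array, as in 11.5% of the 18193 genes with a probe set. For Ltf the gap was 0.00034, between values under background, and Mmp8 was under background on all arrays. Having this p is therefore a description.

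Position on the chromosome was compared with expression for the protein-coding neighbours in RefSeq order. Prtn3 and Elane are next to each other on chromosome 10, on the same strand, and rose together. The gene before Prtn3, Plppr3, was at 2.17 on all arrays. Ctsg lies between Mcpt8 and Gzme on chromosome 14, a cluster of mast cell and lymphocyte granule proteases, and neither was above background on any array (at most 3.14 for Mcpt8). Mpo lies between Tspoap1 and Lpo, which encodes lactoperoxidase. Lpo was at 2.17 on all arrays, whereas Tspoap1 was at 2.24 to 2.36 in WT and 5.89, 6.39 and 7.50 in TG, at least 6.04-fold higher (limma adjusted p = 0.00439). Tspoap1 was singled out after its values were seen.

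For the secondary genes the windows of Ltf (chr9:111019182-111019291, plus strand) and Ngp (chr9:110419658-110419807, plus strand) are given for contrast, running to the base before the start from 110 and 150 bases away. Capitals there mark TTGCNNAA or its reverse complement, a run of the kind that C/EBP factors bind.
Ltf: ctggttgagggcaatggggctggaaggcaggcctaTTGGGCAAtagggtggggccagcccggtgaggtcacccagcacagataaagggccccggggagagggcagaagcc
Ngp: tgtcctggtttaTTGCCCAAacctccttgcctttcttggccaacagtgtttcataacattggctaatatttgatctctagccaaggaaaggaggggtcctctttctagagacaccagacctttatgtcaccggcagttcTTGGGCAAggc

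TTGCNNAA was in the windows of Ltf, Ngp and Lcn2, which is 3 of 4 secondary genes, and in that of Mmp8. It was in 0 of 4 primary windows and in 9.56% of all windows. No match overlapped a match of another motif in these windows.

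The secondary granule genes did not follow the primary ones on the individual TG arrays. Ltf encodes lactoferrin, which binds iron. It was at 2.29, 2.17, 2.29 and 2.29 in WT and 5.15, 2.41 and 2.30 in TG, so TG replicate 1 alone was above background. Camp encodes the cathelicidin precursor, an antimicrobial peptide. It was at 2.17 on all 4 WT arrays and at 6.67, 2.91 and 3.08 in TG, again above background on replicate 1 alone.

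Ngp encodes neutrophilic granule protein, a cystatin-related protein abundant in mouse marrow neutrophils. It was at 2.17 to 2.18 in WT and 7.68, 2.34 and 5.80 in TG, so replicates 1 and 3 were above background and replicate 2 was not. Against a level of 4, the TG mean of Ngp was at least 2.42-fold higher and that of Camp at least 1.16-fold. With values under 4 set at 4, the group means differed by 0.38 for Ltf, 0.89 for Camp and 1.83 for Ngp, and the TG arrays as deposited had SDs of 1.62, 2.12 and 2.71.

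Lcn2 encodes lipocalin 2, which captures bacterial siderophores. It was at 2.17, 2.22, 2.17 and 2.22 in WT and 3.996, 4.01 and 3.91 in TG, and it sat at the background level itself: TG replicate 2 alone was above 4. Its groups were tight and apart, and with no filter it passed the limma test (change 1.78, adjusted p = 0.000283), but with values under 4 set at 4 the change was 0.0048. Ltf, Camp and Ngp did not pass in the fit with no filter (limma adjusted p = 0.703, 0.453 and 0.352).

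The late genes encode matrix metalloproteinases. Mmp8, neutrophil collagenase, which other schemes place in secondary granules, was at 2.37 to 2.39 in WT and 2.74, 3.56 and 3.28 in TG, under background throughout (limma adjusted p = 0.14 with no filter). Mmp9, gelatinase B, the defining protein of tertiary granules, was at 2.18 on 6 arrays and 2.32 on TG replicate 1 with its brighter probe set, and at 2.17 on all 7 arrays with the other. No fold is given where both groups are under background.

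Every TG value lay above every WT value for 9 of the 10 members, all but Mmp9, where 11.5% of the 18193 genes with a probe set did so. That count includes values under background. With values under 4 set at 4 it was 4 of 10, the primary genes, against 10.2% of genes.

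The highest TG array was not the same for the primary genes and for 3 of the 4 secondary genes. Mpo, Elane, Prtn3 and Ctsg were highest on TG replicate 3 and lowest on replicate 1, with a span of 1.09 to 1.46 on the log2 scale, or 2.12-fold to 2.74-fold. Ltf, Camp and Ngp were highest on replicate 1, where Ngp exceeded replicate 3 by 1.89. Ltf and Camp were not above background on replicate 3, and on replicate 1 they exceeded the level of 4 by 1.15 and 2.67. Among the 383 genes that passed as higher, spanned at least 0.5 over the TG arrays and were above background on the highest of them, 93.2% were highest on replicate 3 and 2.1% on replicate 1. Among all 2335 tested genes with such a span the shares were 52.5% and 35.4%. Ltf, Camp and Ngp were not tested and belong to neither set, so these shares are no background for them. Ltf and Camp were above background on replicate 1 alone, which fixes their highest array. Each rank rests on 3 arrays with no test, and T cell markers were also high on replicate 3 alone; their part in the ranks was not tested.

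**Figure D2:**
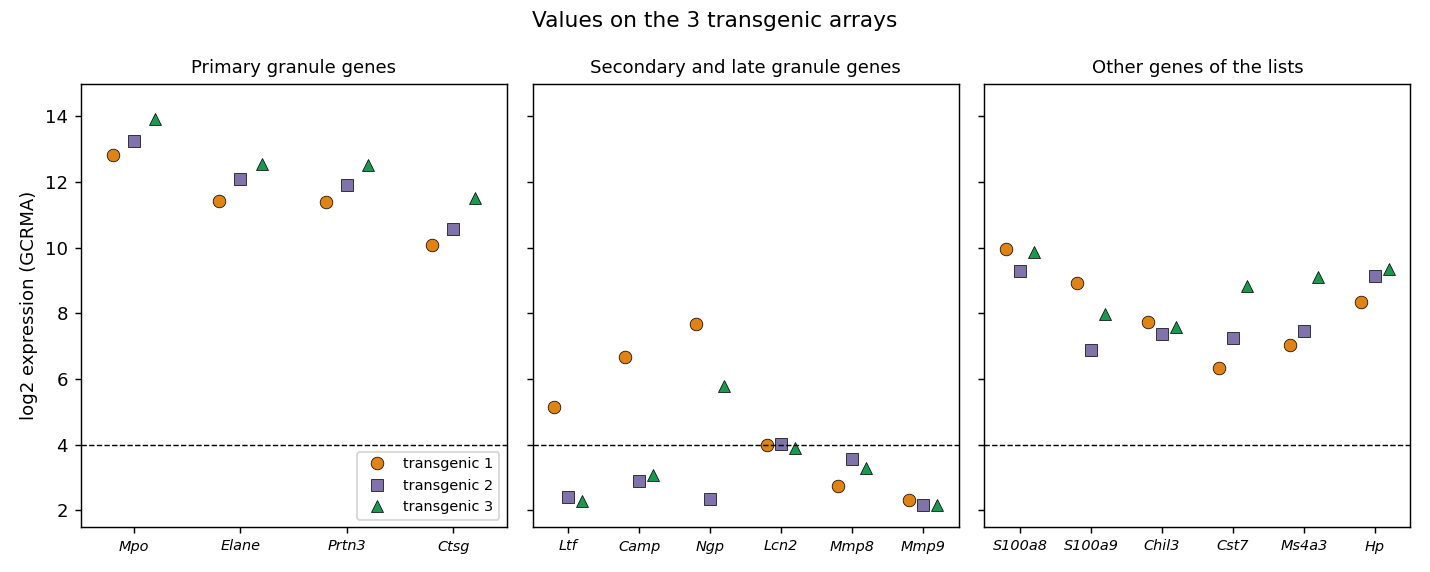
Log2 GCRMA expression on the 3 TG arrays, 1 point per array, for primary granule genes, secondary and late granule genes and 6 other genes of the lists; the dashed line is the background level of 4. Primary genes are highest on TG replicate 3, while Ltf, Camp, Ngp, S100a8, S100a9 and Chil3 are highest on TG replicate 1. For S100a8 and Chil3 the lead over TG replicate 3 is small (9.96 against 9.86 and 7.73 against 7.60).

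Of the other genes tied to primary granules and promyelocytes, 7 of the 10 chosen had a probe set, all were tested, and 3 passed as higher and 0 as lower (limma; 5 and 0 at an unadjusted p under 0.05). Among all 9517 genes tested, 8.11% passed as higher and 2.56% as lower, which is the background for this list and those that follow. With WT replicates 1 and 2 only, 0 passed (limma; 5 higher and 0 lower at an unadjusted p under 0.05). In that fit only 15 of all 20994 probe sets passed, so calls lost in it, here and below, say little about single genes. In this list and those that follow, a gene under background in WT was tested only because it was above it in TG. No share of all genes at an unadjusted p under 0.05 is given, so the unadjusted counts here and below have no background. They are a description only. The median change of these 7 genes was 0.56 where that of all genes tested was 0.00222. Ms4a3, a membrane protein gene of granulocyte and monocyte progenitors, was at 2.17 in WT and 7.03, 7.46 and 9.11 in TG, at least 14.6-fold higher (limma adjusted p = 0.00439). Cst7, encoding cystatin F, an inhibitor of granule cathepsins, was at least 11.1-fold higher. Gusb, encoding the lysosomal enzyme beta-glucuronidase, rose by 1.02 ± 0.10 (SE) from a well measured WT level of 9.69 to 9.80. Ctsd (0.56, adjusted p = 0.0591) and the granule proteoglycan gene Srgn (0.13, adjusted p = 0.0855) did not pass. Ctsc, whose product, dipeptidyl peptidase 1, cuts the primary granule proteases into their active form, was at 12.79 to 12.88 in WT and 12.81 to 12.88 in TG (adjusted p = 0.95).

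Of 13 genes tied to secondary granules, 8 were tested, 2 passed as higher and 0 as lower (limma; 4 and 2 at an unadjusted p under 0.05), with a median change of 0.39. Chil3, a chitinase-like protein gene, was at 7.73, 7.39 and 7.60 in TG and not above background in WT, at least 11.9-fold higher (limma adjusted p = 0.000194). Hp, encoding haptoglobin, rose by 5.32 ± 0.42 (SE, adjusted p = 0.00403), from 3.03, 3.03, 4.15 and 4.30 to 8.36, 9.14 and 9.35. Itgb2 (0.54, adjusted p = 0.0727), the integrin beta chain of leukocytes, and Cybb (0.24, adjusted p = 0.123), a subunit of the NADPH oxidase, did not pass and were above 11 on all arrays. Cd177, Fcnb, Olfm4, Lrg1 and Itgam were under background on all 7 arrays.

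Of the late companions, 12 of 16 had a probe set, 8 were tested, and 5 passed as higher and 0 as lower (limma; 8 and 0 at an unadjusted p under 0.05), with a median change of 2.53, or 2.08 with values under 4 set at 4. S100a8 and S100a9, which encode the subunits of calprotectin, were under background in WT and at least 52.0-fold and 15.3-fold higher in TG. S100a8 was at 9.96, 9.29 and 9.86 in TG and S100a9 at 6.88 to 8.94, both highest on replicate 1. Adam8, a membrane protease gene, rose by 2.70 ± 0.36 (SE, adjusted p = 0.0148), a call lost without WT replicate 2 (limma adjusted p = 0.0598) or TG replicate 2 (0.0726). Mxd1 (0.69, adjusted p = 0.0691) and the chemokine gene Ccl6 (2.37, adjusted p = 0.0714) did not pass. Cxcr2, the chemokine receptor of mature neutrophils, Padi4 and Clec4d were at 2.17 on all arrays. The list's count fell to 2 without WT replicate 2 or TG replicate 2 and to 3 without WT replicate 1, 3 or 4. With WT replicates 1 and 2 only it was 1, and the calls of S100a9 (limma adjusted p = 0.109) and Adam8 (0.117) were lost.

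Inhibitors of the granule proteases and regulators of granulocyte development were listed too; Serpinb1a is also among the primary companions and Csf3r among the late ones. Of 13 inhibitors, 11 had a probe set, 5 were tested and 3 passed as higher and 0 as lower (limma; 4 and 0 at an unadjusted p under 0.05), with a median change of 0.63. Serpinb6a, a serpin that inhibits cathepsin G, rose by 1.12 ± 0.10 (SE, adjusted p = 0.00611). Slpi, secretory leukocyte protease inhibitor, was at 8.95, 8.50, 6.79 and 9.51 in WT and 11.68, 11.61 and 11.65 in TG, and Cst3, encoding cystatin C, rose by 0.63 ± 0.15 (SE). The Slpi call (adjusted p = 0.0295) was lost without WT replicate 1 or 2 or any TG array (0.0532 to 0.1), and that of Cst3 (0.0478) without any array but TG replicate 3 (0.0815 to 0.115). Serpinb1a, the main cytosolic inhibitor of elastase and proteinase 3, was at 12.30 to 12.65 in WT and 12.08 to 12.41 in TG (-0.14, adjusted p = 0.425), and Cstb (0.22, adjusted p = 0.121) did not pass. The count was 1 without WT replicate 1, WT replicate 2, TG replicate 1 or TG replicate 2.

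Of 12 regulators tested, 5 passed as higher and 0 as lower (limma; 9 and 0 at an unadjusted p under 0.05), with a median change of 1.22, or 1.12 with values under 4 set at 4. Cebpa, encoding the factor that commits progenitors to the granulocyte lineage, was at 2.19 to 2.24 in WT and 4.61, 6.22 and 7.20 in TG, at least 4.03-fold higher (limma adjusted p = 0.0176). Cebpd was at least 2.30-fold higher. Csf2ra, encoding the alpha chain of the GM-CSF receptor, rose by 1.66 ± 0.23 (SE, adjusted p = 0.0164). Csf2rb (1.40, adjusted p = 0.0544) and Gfi1 (adjusted p = 0.0642), a repressor needed for neutrophil development, did not pass; the TG mean of Gfi1 was at least 4.62-fold above a level of 4, under which all WT arrays lay. The Cebpa call was lost without WT replicate 2, 3 or 4 or TG replicate 2 (limma adjusted p = 0.0515 to 0.0781) and with values under 4 set at 4 (0.0693), that of Csf2ra without WT replicate 2 (0.0606) or TG replicate 2 (0.0756). The list's count ran from 1 without WT replicate 2 or TG replicate 2, through 2 without WT replicate 3 or 4 and 3 without WT replicate 1, to 8 without TG replicate 1. With WT replicates 1 and 2 only, the calls of Serpinb6a, Cst3, Cebpd, Cebpa and Csf2ra were lost (limma adjusted p = 0.0927 to 0.2), and 1 of the 8 inhibitors and regulators passed.

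**Figure D3:**
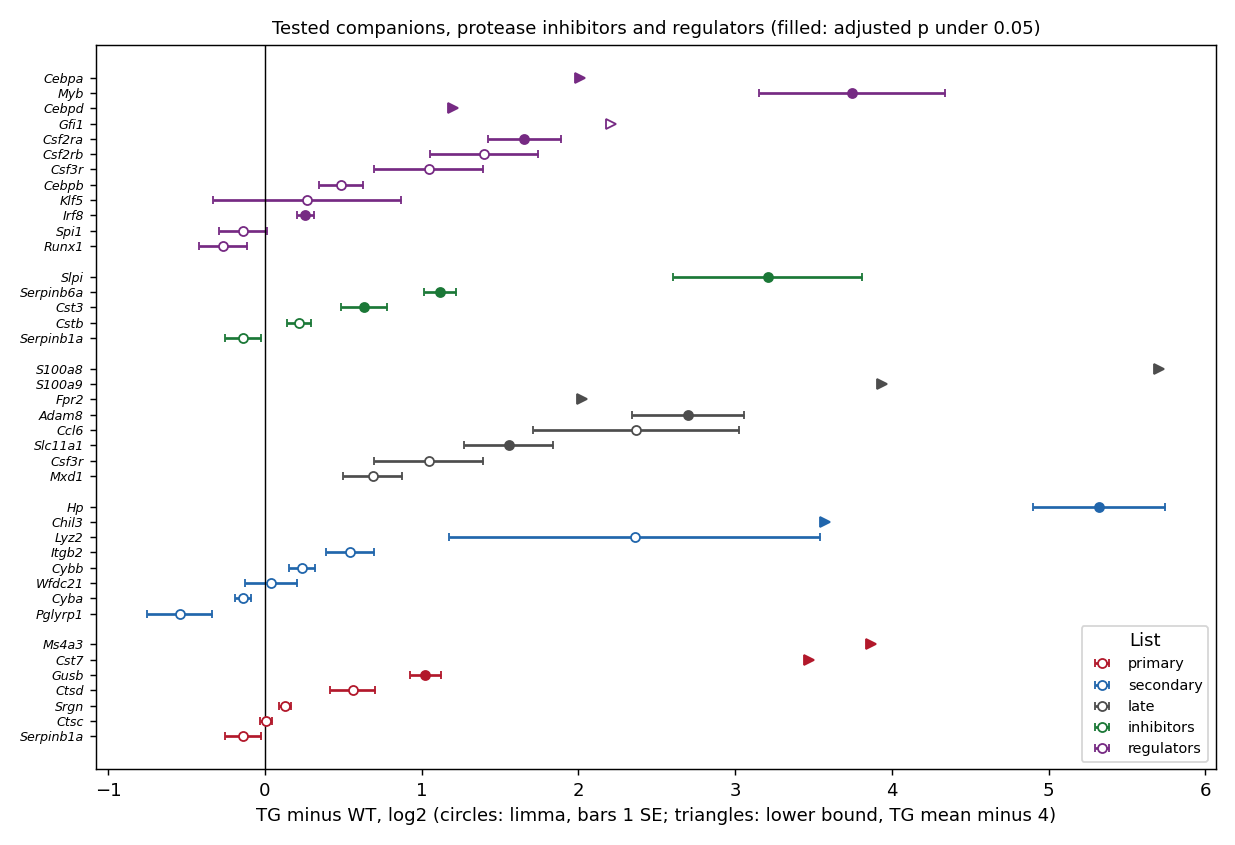
TG minus WT difference on the log2 scale for the tested genes of 5 lists (primary, secondary and late companions, protease inhibitors, granulocyte regulators); circles are limma differences with bars of 1 SE, triangles are lower bounds (TG mean minus 4) for genes under background on all WT arrays, and filled points passed an adjusted p under 0.05. The bound of S100a8 is 5.70 and those of Ms4a3, Cst7, Chil3 and S100a9 are 3.87, 3.47, 3.57 and 3.94, while Ctsc, Srgn and Serpinb1a lie within 0.2 of 0.

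Markers of other cells were measured beside these genes. Of 5 neutrophil markers with a probe set, S100a8 and S100a9 passed, Csf3r, encoding the G-CSF receptor, did not (1.05, limma adjusted p = 0.108), and Cxcr2 and Itgam were under background on all arrays. All 5 are also among the secondary or late companions above and are no separate evidence. The mean of these 5 was 2.79 to 2.95 in WT and 5.62, 5.27 and 5.90 in TG. The mean of 5 NK cell markers was 3.32 to 3.43 in WT and 5.92, 6.21 and 7.26 in TG, and that of 7 erythroid markers 3.33 to 3.42 and 4.30, 5.54 and 5.85. Of the NK cell markers Klrk1, Gzma and Klrd1 passed, Prf1 did not (limma adjusted p = 0.0929) and Ncr1 was under background on all arrays. Of the erythroid markers Klf1 and Car1 passed and Tfrc did not (limma adjusted p = 0.15). Epor, Alas2 and Hba-a1 were under background on all arrays, and Rhd was above it on TG replicate 3 alone. Of 6 eosinophil markers Epx, Siglecf, Ccr3 and Prg3 were under background on all arrays, as were all 6 measured mast cell and basophil markers. The eosinophil marker Prg2 was at 5.91 on TG replicate 3 and at 2.17 on every other array, and it was not tested. Il5ra was above background on all arrays and did not pass (0.55, limma adjusted p = 0.242). Of 8 monocyte and macrophage markers F13a1 (5.01) and Ccr2 passed, and Cx3cr1, Cd14 and Vcan were under background. Csf1r, Adgre1 and Lyz2 were tested and did not pass (limma adjusted p = 0.123, 0.092 and 0.231). For Csf1r and Lyz2, WT replicate 4 (7.09 and 11.45) lay above TG replicate 1 (6.76 and 10.85). Of 6 progenitor markers Kit (3.99), Flt3 (1.86), Myb (3.75) and Cd34 passed, Cd34 at least 3.54-fold higher. Gata2 was under background on all arrays and Meis1 was above it on TG replicate 1 alone, so neither was tested. The part of all these markers in the differences of the granule genes was not tested.

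The genes most like Mpo over the 7 arrays, by Pearson's r among genes tested and members left out, were Chst12, Mgst1, Ifi202b, Golim4, Ptger4 and Cops9, with r of 0.988 to 0.992. Mgst1, encoding a microsomal glutathione transferase, was at 3.88 to 6.62 in WT, highest on replicate 4 as Mpo was, and at 9.06, 9.54 and 10.47 in TG. Elane, Prtn3 and Ctsg had r of 0.987, 0.990 and 0.975 with Mpo, and Ltf, Camp and Ngp 0.448, 0.606 and 0.690. The 7 points fall into 2 groups of arrays, so such values mostly reflect the difference between them. For Ltf the most similar tested genes were Usp49, Atpaf2, B830008H07Rik, Pigb, Dhrsx and Pgpep1 (r of 0.992 to 0.998), none of which changed by more than 0.17 between the groups. Ltf varies through TG replicate 1 alone, and that array sets these values; Camp had r of 0.978 and Ngp 0.809 with Ltf.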

How the data were processed

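RNA of splenic B cells from 4 WT and 3 TG mice was hybridised to 1 Affymetrix array each. The deposited values are log2 expression that, per the submitters' processing notes, the authors computed with GCRMA; no version or build is given in the sources used here. GCRMA corrects background from probe sequence and quantile normalizes, which leaves 35.6% to 37.0% of the values on an array at the lowest value. Differences among values at that level are not seen. Probe sets above 4 on at least 3 of 7 arrays, controls left out, were fitted with limma 3.58.1 in R 4.3.3 (lmFit, eBayes with an intensity trend) and adjusted by Benjamini-Hochberg over 20994 probe sets, at an adjusted p under 0.05. Where several probe sets name a gene, the one of highest mean stands for it. Genes under 4 on every array of one group are given as at least N-fold, the brighter mean against 4. Each member has 1 probe set, except Mmp9. The fit was tested on simulated data. Named genes were all members, up to 3 passing and 2 non-passing genes of smallest p in each list, the 6 genes most correlated with Mpo and with Ltf, and Xist and Eif2s3y; markers and neighbours are named beside these. Members, lists and tests were chosen with earlier results of these data known. Alternatives changed the filter, floor, normalization, variance model, array weights, sex and arrays used. Nothing says that same-numbered WT and TG samples were paired: their deviations correlated at -0.04, -0.14 and -0.29. P-values rest on the spread between these mice. For genes under background or at 1 repeated value in WT, the spread between WT mice is not measured. Genes of the lists with no probe set of their own were not analysed here.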

Additional observations from a re-analysis of the deposited data

Results flagged for a closer look

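WT replicate 4 stood apart from the other 3 WT arrays for 3 of the 4 primary granule genes. Its gap to the next array took up more of the WT range than Dixon's 95% critical value allows for Mpo (6.95 against 2.85 to 3.23 on the others), Elane (5.46 against 4.17) and Prtn3 (5.30 against 3.68 to 3.75). The same held for Mxd1, a MYC antagonist gene (7.83 against 7.43 to 7.49). The other WT values of Mpo and Prtn3 are under background and those of Elane are 1 repeated value, so their spread is not measured and an array above it takes up nearly all of the range. Ctsg was not above background in WT and was not checked. Of 19 named genes with a WT value above background, these 4 were flagged, all on WT replicate 4; chance flags about 1 in 20 groups, and these genes share their arrays. Monocyte and macrophage markers were also highest in WT on that array (mean level 5.19). Their part in these values was not tested.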

How the results depend on the processing

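Of 19 alternatives to the setting reported, all but the replicate block and the fit without TG replicate 2 kept 4 members past the threshold; with no filter the 4 were Elane, Prtn3, Ctsg and Lcn2. Blocking on the replicate number, without WT replicate 4, 1 member (Mpo) passed, and the changes of Elane, Prtn3 and Ctsg were 7.86, 8.25 and 8.25 (adjusted p = 0.0563, 0.0563 and 0.0635). Leaving out 1 array gave 3 to 4 members. Every alternative kept the sign of the 4 primary changes: 8.60 to 10.5 for Mpo, 7.28 to 7.86 for Elane, 7.56 to 8.27 for Prtn3 and 6.72 to 8.41 for Ctsg. With values under 4 set at 4, 4 members and not 9 had groups that did not overlap. The 1949 probe sets that passed became 199 with no filter, 5945 with array weights, 4 with the replicate block, 277 with the Xist level as a covariate, 15 with WT replicates 1 and 2 only, 687 without WT replicate 4 and TG replicate 3, and 138 to 2149 without 1 array. The 10 companion genes that passed became 17 with array weights (15 higher and 2 lower), 2 with the block and 3 with WT replicates 1 and 2 only (7 to 14 without 1 array, the 14 being 13 higher and 1 lower). The 8 inhibitors and regulators became 2 with no filter, 0 with the block (limma; 11 at an unadjusted p under 0.05), 2 with the Xist covariate, 1 with WT replicates 1 and 2 only, 5 without WT replicate 4 and TG replicate 3, and 2 to 9 without 1 array. Serpinb1a, which did not pass, turned from -0.14 to 0.0354 without WT replicate 4 and TG replicate 3. The cause of these moves was not tested. Genes near the background level, Lcn2 among them, have no reliable size of change.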
